A study of Mus musculus with 10 samples.

Results

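Ribosomal protein genes were followed at their promoters through erythroid maturation. The set held 154 of 21851 mouse protein-coding genes, of which 76 encoded proteins of the cytosolic ribosome and 78 proteins of the mitochondrial ribosome. They were chosen by symbol from the GENCODE M21 annotation: Rpl or Rps with a number and at most the letters a or x, together with Rplp0, Rplp1, Rplp2 and Rpsa for the cytosolic ribosome, and Mrpl or Mrps with a number for the mitochondrial one. The rule itself used no measured value. The measurement was ATAC-seq, in which the Tn5 transposase cuts and tags accessible DNA, and the data were lists of peak summits called in each library. A gene was counted as listed in a library when at least 1 summit lay within 1 kb of any of its annotated transcript starts.

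All 10 libraries came from G1E-ER4 cells, a mouse erythroid progenitor line that lacks endogenous Gata1 and carries GATA1 fused to the ligand-binding domain of the estrogen receptor. Without hormone the cells stay undifferentiated, and β-estradiol (1e-07 M) activates the fusion protein so that the cells mature. Libraries were made from about 50000 cells at 0 h (no β-estradiol) and after 2, 6, 12 and 24 h, with 2 libraries (replicates 1 and 2) per time point. The cells of every time point grew in IMDM with 15% FBS, SCF at 50 ng/mL and EPO at 2 U/mL. The study describes the replicates as independent experiments, and the labels give only their numbers. As the line is 1 clone, the spread is between experiments on 1 clone.

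The cytosolic ribosome translates messenger RNAs of the nucleus, whereas the mitochondrial ribosome translates the few messenger RNAs of the mitochondrial genome, and the proteins of both are encoded by nuclear genes. Erythroid precursors make very large amounts of globin, and loss of 1 copy of a cytosolic ribosomal protein gene such as RPS19 causes Diamond-Blackfan anaemia, a failure of red cell production. Cytosolic ribosomal protein messages commonly begin with a C followed by a run of pyrimidines, the terminal oligopyrimidine tract, through which their translation is controlled.

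The promoters at the extremes of the results are shown first, as 75 bases before and 15 bases from the annotated start used here, 5′ to 3′ on the strand of the gene, from the RefSeq genome of GRCm38.p6 (the build also called mm10). Capitals mark matches on either strand to CCGGAAG (bound by ETS factors such as GABPA), AAGATGGC (YY1) and the NRF1 motif, and a pyrimidine tract that begins with C within 5 bases of the start. Matches that overlap are joined. The first 3 are the cytosolic genes with the highest-placed summits.
Rps21 (chr2:180257302-180257391, plus strand): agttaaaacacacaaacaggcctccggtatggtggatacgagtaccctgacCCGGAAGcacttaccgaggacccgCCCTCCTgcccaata
Rpl27 (chr11:101442223-101442312, plus strand): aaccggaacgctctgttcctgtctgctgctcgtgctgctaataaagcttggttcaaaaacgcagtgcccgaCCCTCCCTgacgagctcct
Rpl37 (chr15:5116570-5116659, plus strand): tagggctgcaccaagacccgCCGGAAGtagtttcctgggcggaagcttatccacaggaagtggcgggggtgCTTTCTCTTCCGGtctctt
The next pair, Rpl5 and Rps18, was listed in the 5 replicate 2 libraries and in none of the replicate 1 libraries.
Rpl5 (chr5:107900427-107900516, plus strand): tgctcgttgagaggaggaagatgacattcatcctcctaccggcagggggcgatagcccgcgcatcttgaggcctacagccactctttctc
Rps18 (chr17:33955663-33955752, minus strand): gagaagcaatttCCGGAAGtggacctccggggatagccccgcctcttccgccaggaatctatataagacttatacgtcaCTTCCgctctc
Rpl6 and Rpl8 were listed in no library, and Rpl29 only after β-estradiol.
Rpl6 (chr5:121204406-121204495, plus strand): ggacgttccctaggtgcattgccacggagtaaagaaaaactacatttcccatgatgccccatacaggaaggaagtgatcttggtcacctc
Rpl8 (chr15:76904003-76904092, plus strand): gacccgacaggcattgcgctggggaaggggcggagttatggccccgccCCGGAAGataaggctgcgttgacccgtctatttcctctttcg
Rpl29 (chr9:106429379-106429468, plus strand): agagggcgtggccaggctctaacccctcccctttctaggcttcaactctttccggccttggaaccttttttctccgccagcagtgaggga
Of the mitochondrial genes, Mrps14, Mrpl17 and Mrps12 had the highest-placed summits, Mrpl36 was listed only after β-estradiol, and Mrpl13 was listed at 0 and 6 h.
Mrps14 (chr1:160195140-160195229, plus strand): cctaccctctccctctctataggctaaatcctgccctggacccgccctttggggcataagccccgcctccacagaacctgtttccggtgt
Mrpl17 (chr7:105811085-105811174, minus strand): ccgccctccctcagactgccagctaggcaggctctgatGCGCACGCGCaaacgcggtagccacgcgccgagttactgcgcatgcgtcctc
Mrps12 (chr7:28741806-28741895, minus strand): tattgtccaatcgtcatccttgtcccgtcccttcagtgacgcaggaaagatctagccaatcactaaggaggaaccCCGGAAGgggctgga
Mrpl36 (chr13:73328438-73328527, plus strand): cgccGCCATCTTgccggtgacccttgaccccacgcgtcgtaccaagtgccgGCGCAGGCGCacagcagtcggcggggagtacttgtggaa
Mrpl13 (chr15:55557734-55557823, minus strand): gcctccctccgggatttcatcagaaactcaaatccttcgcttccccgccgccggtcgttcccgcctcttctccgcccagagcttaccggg

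The lists held between 10698 and 19859 summits per library, which carried −log10 q-value scores from 1.30 up to 160. The number of reads behind each list is not known, and a list contains only what passed the caller, so a gene that was not listed was not shown to be closed. The share of cells with an open promoter and the degree of opening per cell cannot be told apart. Of 12 erythroid marker genes, 10 were listed in at least 1 library, and single libraries listed 4 to 10 of them. Tfrc and Zfpm1 were listed in all 10 libraries, Epor in 9, Nfe2 and Lmo2 in 7, and Ank1 in 5. Klf1 was listed in 4, Tal1 in 2 and Gata1 in 1, while Alas2 and Slc4a1 were listed in none. Of 20 markers of other lineages, Col1a1 alone was listed, in 8 libraries.

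The promoters of both ribosomes were listed far more often than those of other genes. The cytosolic set had 74 of 76 genes listed in at least 1 library and 32 (42.1%) in all 10, and the mitochondrial set had 78 of 78 and 42 (53.8%). Of all protein-coding genes, 9612 (44%) were listed in at least 1 library and 5671 (26%) in all 10. Among genes listed at least once, however, the share listed in all 10 was 59%, which neither ribosomal set reached. The large and small subunits were alike in this count. Of the cytosolic large subunit, 20 of 46 genes were listed in all 10 libraries, and of the small subunit 12 of 30. The mitochondrial counts were 25 of 49 and 17 of 29. The acidic stalk, the lateral arm of the large subunit that recruits translation factors, had Rplp0 and Rplp2 listed in all 10 libraries and Rplp1 in 8.

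Rpl6 and Rpl8, both proteins of the large subunit, were the 2 members listed in no library. The summit nearest to an Rpl6 start lay between 6114 and 11863 bp away over the 10 libraries, and that nearest to Rpl8 between 1727 and 4663 bp. A reach above 1 kb was not run, and one of 2 kb would have taken in the nearest Rpl8 summit. A further 12 cytosolic genes were listed in 2 to 5 libraries outside the pair Rpl5 and Rps18: Rpl10a, Rpl19 and Rpl35a in 2, Rpl4, Rpl17, Rpl36, Rps6, Rps9 and Rps15a in 3, Rpl35 in 4, and Rps23 and Rps4x in 5. The other 28 partly listed cytosolic genes were found in 6 to 9 libraries. The mitochondrial genes listed least often were Mrpl3, Mrpl53 and Mrps10 in 3 libraries and Mrpl13, Mrpl28 and Mrps34 in 4. Another 5 (Mrpl46, Mrpl52, Mrps5, Mrps11 and Mrps25) were listed in 6 libraries and the remaining 25 in 7 to 9. Of the 4 members on the X chromosome, Rpl10 and Rpl39 were listed in all 10 libraries, Rpl36a in 7 and Rps4x, whose human homologue escapes X inactivation, in 5.

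**Figure D1:**
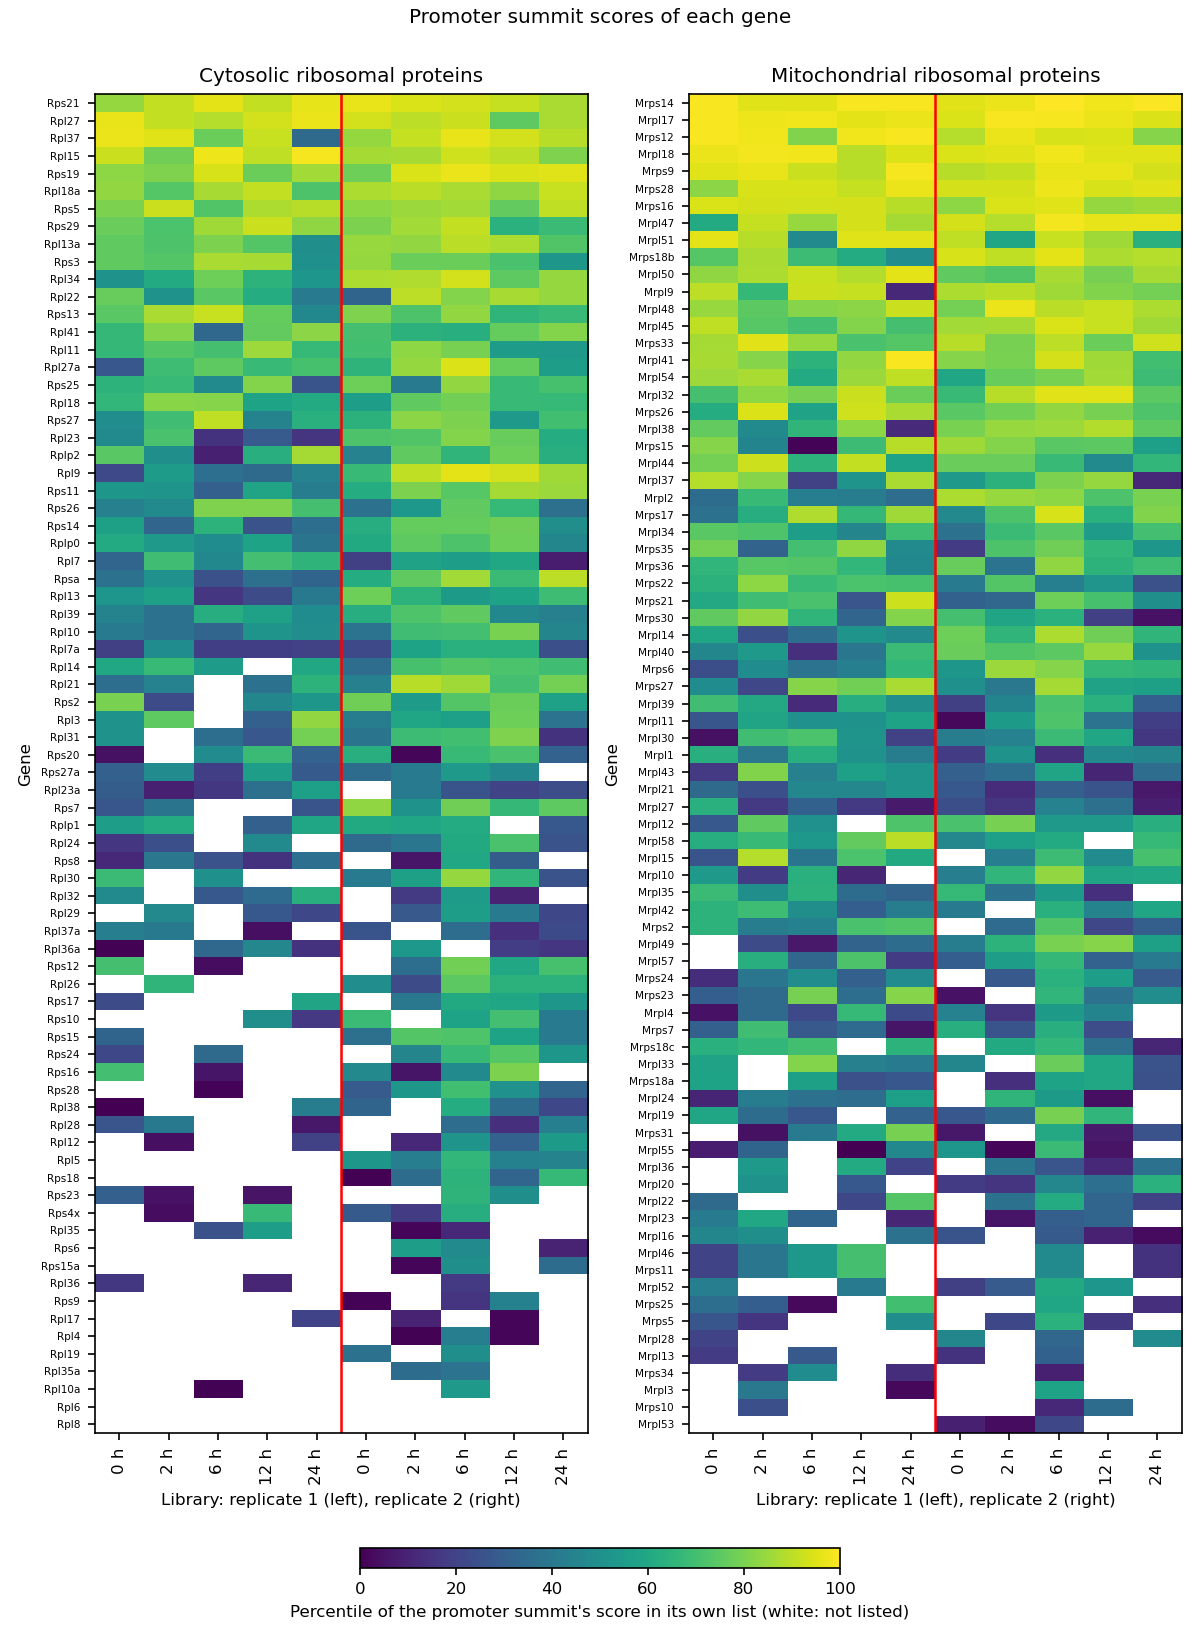
Each row is a gene and each column a library, with the replicate 1 libraries left of the red line and the replicate 2 libraries right of it, in order of time (0, 2, 6, 12 and 24 h). Colour gives the percentile of the promoter's strongest summit in its own list, and white means not listed. White cells in the cytosolic panel lie mostly on the left, and those in the mitochondrial panel lie on both sides.

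To ask whether the promoters opened or closed with GATA1 activity, the listed genes were counted in each library. In order of time (0, 2, 6, 12 and 24 h), the replicate 1 libraries listed 57, 49, 47, 51 and 52 cytosolic genes, and the replicate 2 libraries 55, 65, 72, 65 and 60. The mitochondrial counts were 69, 71, 67, 65 and 69 in replicate 1 and 62, 65, 78, 69 and 64 in replicate 2. The ranges of the time points overlapped in both sets. The cytosolic mean started at 56.0 ± 1.41 (SD, n = 2), was highest at 6 h with 59.5 ± 17.7, and ended at 56.0 ± 5.66 after 24 h. The mitochondrial mean started at 65.5 ± 4.95, was also highest at 6 h with 72.5 ± 7.78, and ended at 66.5 ± 3.54. All protein-coding genes started at 7891 ± 474, were highest at 6 h with 8500 ± 827 and ended at 7836 ± 345. These differences between time points were smaller than, or close to, the spread between replicates. The 6 h replicate 2 list was also the longest, with 19859 summits, and held the highest count of all 3 sets.

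Within each replicate number the cytosolic set moved in opposite directions. In the replicate 1 libraries the cytosolic count was below its own 0 h value at all later times, with changes of −8, −10, −6 and −5 genes. In the replicate 2 libraries it was above its 0 h value at all later times, by 10, 17, 10 and 5 genes. The same was true of all protein-coding genes, whose changes ran from −3.78% to −0.498% in replicate 1 and from 0.476% to 20.2% in replicate 2. The cytosolic changes ran from −17.5% to −8.77% in replicate 1 and from 9.09% to 30.9% in replicate 2. The mitochondrial changes were +2, −2, −4 and 0 genes in replicate 1 and +3, +16, +7 and +2 in replicate 2. No direction over time can therefore be given for either set.

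**Figure D2:**
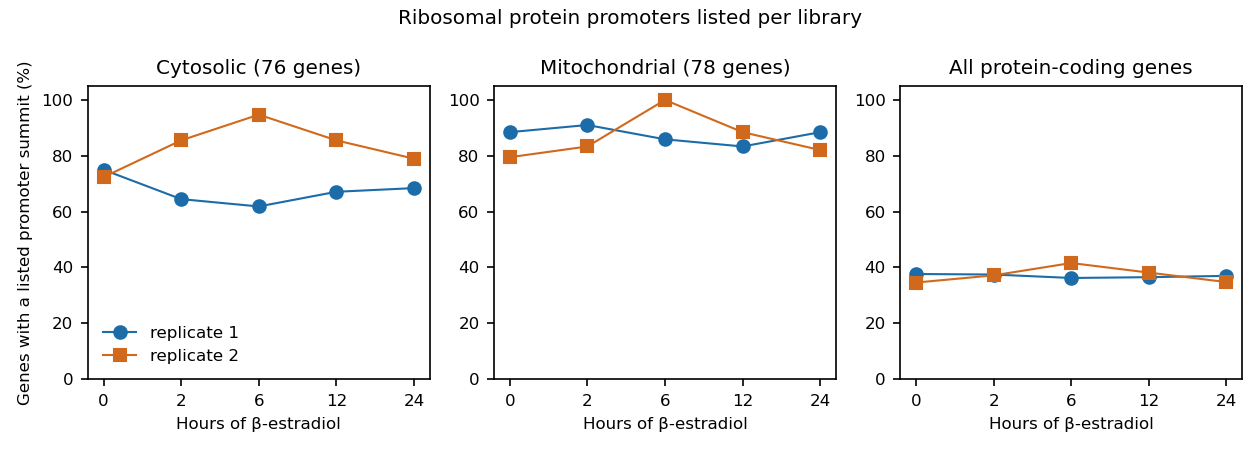
The share of genes with a listed promoter summit (vertical axis, %) is plotted against hours of β-estradiol (horizontal axis, evenly spaced) for 1 library per point, with circles for replicate 1 and squares for replicate 2. The cytosolic lines separate after 0 h (61.8% and 94.7% at 6 h), the mitochondrial lines cross, and all genes stay between 34.6% and 41.6%.

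A gene was called gained when both libraries of a time point and neither 0 h library listed it, and lost in the opposite case. Over the 4 times 12 members met either rule, of which 5 (Rpl12, Rpl29, Mrpl13, Mrpl28 and Mrpl36) did so more than once and none of those at 6 h. Counts over several times were not made for all genes, so these have no background beside them. At 2 h, Rpl12, Rpl29 and Mrpl36 were gained beside 1.46% of 9612 genes listed at least once, and Rpl38, Mrpl13, Mrpl28 and Mrpl33 were lost beside 0.801%. At 6 h, Rpl10a, Rpl35 and Mrps34 were gained beside 2.35% of the 9612 genes, and no member was lost beside 0.114%. At 12 h, Rpl29 and Mrpl36 were gained beside 1.64%, and Mrpl13 and Mrpl28 were lost beside 0.728%. At 24 h, Rpl12, Rpl29 and Mrpl36 were gained beside 1.06%, and Rps16, Mrpl13 and Mrpl52 were lost beside 1.2%. Since the 0 h libraries are shared, the 4 comparisons are not independent.

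Rpl29, a protein of the large subunit, was listed in neither 0 h library and in 7 of the 8 later ones. Its scores in replicate 1 were 5.83, 4.17 and 3.79 after 2, 12 and 24 h, and in replicate 2 they were 4.83, 8.81, 6.21 and 4.38 after 2, 6, 12 and 24 h. Mrpl36, a small protein of the mitochondrial large subunit, had the same pattern, with scores of 6.46, 6.80 and 3.69 in replicate 1 and 5.81, 4.72, 3.51 and 5.69 in replicate 2 for the same times. The library that lacked both was replicate 1 of 6 h. Mrpl36 shared its summit with Ndufs6, a neighbour that encodes a subunit of respiratory complex I, in 5 of those libraries. This pattern, with absence at 0 h and presence in at least 7 later libraries, was found for 66 genes (0.687% of 9612), 2 of them members. Rpl12, a protein at the base of the stalk, was listed in neither 0 h library and in 6 later ones, at scores between 2.64 and 7.98, and its summit was shared with Lrsam1.

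Mrpl13 was listed in both libraries at 0 h (3.89 and 3.76) and at 6 h (4.21 and 5.19) and in none at 2, 12 and 24 h. Mrpl28 was listed in both 0 h libraries (4.09 and 6.33) and in replicate 2 at 6 h (5.39) and 24 h (6.78). Both are proteins of the mitochondrial large subunit. Presence in both 0 h libraries and in at most 2 later ones was found for 26 genes (0.27%), among them these 2 members. The percentiles of these scores in their lists ran from 14.5 to 31.0 for Mrpl13, from 20.4 to 48.4 for Mrpl28, from 21.6 to 56.2 for Rpl29 and from 11.4 to 61.2 for Mrpl36.

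For genes listed in all 10 libraries, the place of the promoter's strongest summit among these genes was compared between time points with limma, a linear model that pools the spread over genes. The within-library rank was turned into a normal score, in which 0 is the middle gene and 1 is 1 SD above it. Of 5671 genes tested, 32 were cytosolic and 42 mitochondrial members. Members that were not in every list could not enter this test. At an adjusted p (Benjamini-Hochberg) under 0.05, limma called 0 genes (0%) at 2, 6, 12 or 24 h against 0 h or for the slope over the 5 time points, members included. At an unadjusted p under 0.05, it gave 159, 129, 141 and 181 genes at the 4 times and 178 for the slope. No cytosolic member was among them at 2, 12 and 24 h or for the slope, and at 6 h Rpl27a was among them at +1.41 and Rpl13 at −1.48. The mitochondrial members numbered 1, 3, 2, 3 and 3. These counts come from the fit without replicate number. With it as a further term, they were 0, 4, 1, 0 and 0 cytosolic and 2, 4, 3, 5 and 3 mitochondrial members.

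The median change of the cytosolic members was 0.06, 0.07, −0.02 and 0.07 at 2, 6, 12 and 24 h, and that of the mitochondrial members 0.05, −0.11, 0.01 and −0.08, on the normal score scale. Over all genes these medians were 0.01 or closer to 0. Leaving out 1 library turned the sign of each of these 8 member medians. At 2 h the cytosolic median ran from −0.22 without 2 h replicate 2 to 0.39 without 2 h replicate 1, and the mitochondrial one from −0.19 without 0 h replicate 2 to 0.19 without 2 h replicate 2. After 6 h they ran from −0.19 (without 0 h replicate 1) to 0.23 (without 0 h replicate 2) and from −0.16 (without 0 h replicate 2) to 0.13 (without 6 h replicate 1). For 12 h the ranges were −0.17 to 0.24 and −0.12 to 0.13, in which leaving out a 0 h library gave both cytosolic ends. For 24 h they were −0.15 (without 0 h replicate 1) to 0.19 and −0.08 to 0.23 (without 24 h replicate 2). The 95% interval of a single member's change had a median width of 2.47 in the cytosolic and 2.65 in the mitochondrial set. These widths come from the fit without replicate number as a term. Changes of single members that are small beside them could not be told from 0. The slopes per step of time are given by the 3 highest and the 3 lowest of each set. The cytosolic extremes were Rps26 at 0.175 (95% interval −0.0902 to 0.441), Rpl9 at 0.144 and Rplp2 at 0.143 on one side, and Rpl37 at −0.262 (−0.589 to 0.0649), Rpl23 at −0.189 and Rps3 at −0.186 on the other. The mitochondrial extremes were Mrps27 at 0.301 (0.0293 to 0.572), Mrps17 at 0.292 (0.0451 to 0.539) and Mrps21 at 0.209, against Mrps30 at −0.372 (−0.721 to −0.023), Mrpl9 at −0.304 and Mrpl27 at −0.233. Each had an adjusted p of 1 in limma. For Mrps17, a protein of the mitochondrial small subunit, the normal scores in order of time were −1.37, −0.641, 0.595, −0.355 and 0.406 in replicate 1 and −0.817, −0.254, 0.762, −0.627 and 0.371 in replicate 2. All 8 later values lay above both 0 h values. Mrps17 was named for its slope in these same values, so their order is no separate support for a rise.

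The cytosolic set differed between the replicate numbers, a comparison that was chosen after its values were seen. Over the 5 time points the replicate 1 libraries listed 51.2 ± 3.77 cytosolic genes (SD, n = 5, range 47 to 57) and the replicate 2 libraries 63.4 ± 6.35 (55 to 72), and replicate 2 listed more of them at 4 of the 5 times. The mitochondrial set had 68.2 ± 2.28 and 67.6 ± 6.35, with more in replicate 2 at 2 of 5, and all genes 8077 ± 132 and 8138 ± 627, also at 2 of 5. When every list was reduced to the same number of highest-scoring summits, the cytosolic counts were 40.6 ± 2.30 and 57.8 ± 4.49, and replicate 2 was higher at 5 of 5 time points without overlap. All genes were also higher in replicate 2 at 5 of 5 without overlap (6759 to 7044 and 7217 to 7766), and the mitochondrial set at 4 of 5. On equal lists the replicate 2 mean was 1.42 times that of replicate 1 for the cytosolic set, 1.07 times for the mitochondrial set (57.0 and 60.8) and 1.08 times for all genes (6912 and 7492).

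The difference was spread over many genes. Of the 42 cytosolic genes listed in 1 to 9 libraries, 31 were listed in more replicate 2 than replicate 1 libraries, 7 in fewer and 4 in as many. Of the 36 such mitochondrial genes, 12 were listed in more, 16 in fewer and 8 in as many, and of all 3941 such genes 1681 in more, 1596 in fewer and 664 in as many. A margin of at least 3 libraries towards replicate 2 was found for 10 of 74 cytosolic and 2 of 78 mitochondrial genes beside 2.25% of 9612, and towards replicate 1 for no member beside 1.27%. Rpl5 and Rps18 were listed in all replicate 2 libraries and no replicate 1 library, as were 7 genes in all (0.0728%), of which Vps52 shared the summit of Rps18, and the reverse was found for 2 genes (0.0208%), neither a member. The Rpl5 scores were 7.08, 6.14, 11.4, 6.54 and 6.38 at 0, 2, 6, 12 and 24 h, and those of Rps18 were 2.17, 5.44, 10.8, 5.33 and 9.63. Rpl5 binds 5S ribosomal RNA together with Rpl11, whose promoter was listed in all 10 libraries.

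Among genes listed in all 10 libraries, the limma fit with time and replicate number as terms gave 170 genes (3%) placed higher in replicate 2 and 107 (1.89%) placed lower at an adjusted p under 0.05. Of the 32 cytosolic members 3 were higher and none lower, and of the 42 mitochondrial members 3 (Mrpl2, Mrps18b and Mrpl14) were higher and none lower. Rpl9 was higher by 1.94 on the normal score scale (95% interval 1.30 to 2.59, limma adjusted p = 0.00452), Rpsa by 1.37 (adjusted p = 0.03) and Rpl23 by 1.21 (adjusted p = 0.0439). The scores of the Rpl9 summit were 4.20, 6.54, 4.81, 4.59 and 5.26 in replicate 1 at 0, 2, 6, 12 and 24 h, and 9.25, 18.6, 33.0, 23.5 and 15.2 in replicate 2. The 2 ranges did not overlap, but Rpl9 was named for its difference between these same libraries. The lists themselves also differed by replicate number. The median score of all summits was 5.68 to 6.48 in replicate 1 and 6.73 to 7.68 in replicate 2, and the share of listed genes with the strongest summit within 100 bp of a start was 46.5% to 50.4% and 53.2% to 54.9%. The part of these values in the cytosolic difference was not tested.

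Like the other cytosolic genes, a list of 19 genes that carry Diamond-Blackfan anaemia mutations in patients had a higher mean count in replicate 2. All 19 were listed in at least 1 library and 8 in all 10: Rpl11, Rpl15, Rpl18, Rpl27, Rps19, Rps26, Rps27 and Rps29. Replicate 1 libraries listed 11.4 ± 0.894 of them (range 10 to 12) and replicate 2 libraries 16.8 ± 1.92 (14 to 19), higher at 5 of 5 time points. Of the 11 that were partly listed, 10 were found in more replicate 2 libraries and none in more replicate 1 libraries, with Rpl35 at 2 of each. The other 57 cytosolic genes had 39.8 ± 3.56 and 46.6 ± 4.77, with more in replicate 2 at 4 of the 5 times. Rps19, the gene most often mutated in this anaemia and placed at chr7:24884371-24889806, had a median percentile of 90.0.

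Genes that act with ribosomes were described beside the members. Of 32 ribosome assembly genes, 17 were listed in all 10 libraries, with 26.4 ± 1.52 listed per replicate 1 library and 27.2 ± 2.77 per replicate 2 library. Of 22 cytosolic translation factors, 14 were listed in all 10, with 18.6 ± 1.67 and 20.8 ± 0.837. Of 27 genes of mitochondrial translation and ribosome assembly, 18 were listed in all 10, with 23.8 ± 0.837 and 23.4 ± 1.95. Of 13 ribosomal protein paralogues and S6 kinases left out by the symbol rule, 8 were listed in all 10, and Rpl3l, Rpl10l, Rpl39l and Rps27rt in none. Annotated pseudogenes named after cytosolic members were nearly without summits. Of 292 whose start lay more than 1 kb from any coding start, 4 had a summit in at least 1 library and 0 in all 10.

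Listed ribosomal promoters were placed lower in the lists than other promoters. The median percentile of the strongest promoter summit among all summits of its library was 57.6 ± 7.14 (SD over 10 libraries) for the cytosolic set, 62.0 ± 4.72 for the mitochondrial set and 67.7 ± 3.32 for all genes listed. For the cytosolic set it was 52.7 ± 4.10 in replicate 1 and 62.6 ± 6.10 in replicate 2, while for the mitochondrial set it was 62.6 ± 3.29 and 61.4 ± 6.19. The highest medians of cytosolic members listed in all 10 libraries were those of Rps21 (92.2), Rpl27 (91.4) and Rpl37 (91.4), and the lowest those of Rpl7a (23.2), Rpl10 (47.3) and Rpl39 (53.0). The Rps21 scores in order of time were 12.1, 13.7, 15.9, 12.8 and 16.7 in replicate 1 and 22.9, 22.4, 27.8, 21.1 and 16.1 in replicate 2, which was the higher at 4 of these 5 times. Of the mitochondrial members, Mrps14 (98.5), Mrpl17 (97.1) and Mrps12 (95.7) had the highest medians, and Mrpl27 (20.6), Mrpl21 (29.2) and Mrpl43 (39.8) the lowest. Mrps14, a protein of the mitochondrial small subunit, stood between the 95.0 and 99.7 percentiles in every library.

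Summits of the cytosolic set, like those of all genes, lay mainly just upstream of the start, and those of the mitochondrial set at or just inside it. The median signed distance per library, negative upstream, averaged −46.4 ± 18.4 bp for the cytosolic set, 14.4 ± 19.5 bp for the mitochondrial set and −36.4 ± 4.58 bp for all listed genes. Of the listed members, 67.1% ± 6.72 of the cytosolic and 43.7% ± 6.32 of the mitochondrial set had the summit upstream, beside 59.9% ± 2.12 of all genes. The cytosolic median was −62.5 ± 7.86 bp in replicate 1 and −30.3 ± 6.94 bp in replicate 2, with no overlap (−71 to −51 and −38.5 to −23 bp). All listed genes stood at −33.6 ± 1.14 and −39.2 ± 5.12 bp, so the cytosolic summits were further upstream than those of all genes in replicate 1 and nearer to the start in replicate 2. The strongest summit lay within 100 bp of a start for 62.5% ± 6.15 of the cytosolic, 53.4% ± 7.42 of the mitochondrial and 51.1% ± 3.30 of all genes. Over the 10 libraries the summit position varied least for Rpl27 (79 bp) and Rpl34 (130 bp) in the cytosolic set and for Mrps14 (44 bp) and Mrpl54 (61 bp) in the mitochondrial set. It varied most for Rpl18 (2865 bp, over more than 1 annotated start) and Rpl7 (689 bp), and for Mrpl14 (959 bp) and Mrpl43 (849 bp).

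**Figure D3:**
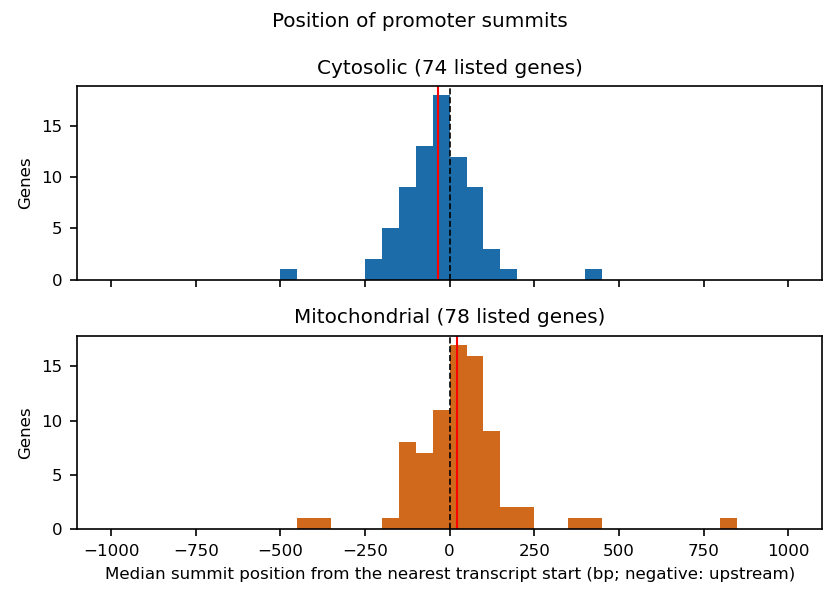
Histograms of each listed gene's median summit position over libraries (horizontal axis, bp from the nearest transcript start, negative upstream, 50 bp bins) with the number of genes on the vertical axis. The dashed line is the start and the red line the median over genes, which lies upstream for the 74 cytosolic genes and downstream for the 78 mitochondrial genes.

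Mitochondrial members often faced another gene. A start on the opposite strand lay within 1 kb for 32 of 78 mitochondrial genes (41.0%) and 13 of 76 cytosolic genes (17.1%), beside 10.5% of all genes. A summit was shared with another gene by 34 mitochondrial and 14 cytosolic members, so that at these promoters the data do not tell which gene the summit belongs to. Mrpl46 and Mrps11 shared their summit with each other in 6 libraries, and Rpl7a shared its summit with Med22 in all 10. When each summit was given to its nearest gene alone, the counts per time point lay between 53.5 and 58.0 for the mitochondrial set, beside 65.5 to 72.5 before. Of the mitochondrial genes with an opposite start 21 of 32 were listed in all 10 libraries, and of those without 21 of 46. Among all genes these shares were 63.4% and 21.6%. The cytosolic genes without an opposite start had 42.6 ± 4.16 listed in replicate 1 and 51.8 ± 5.07 in replicate 2, and those with one had 8.60 ± 0.548 and 11.6 ± 1.52.

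Promoter sequence was compared in windows from 250 bases before to 50 bases from the start, on both strands, with one window per gene. CCGGAAG was found in 32.9% of cytosolic and 39.7% of mitochondrial promoters, beside 11.6% of all promoters and 24.3% of those listed in all 10 libraries. It lay at a median of 33 bases upstream in the cytosolic and 10 bases upstream in the mitochondrial set. The NRF1 motif was found in 16.7% of mitochondrial and 5.26% of cytosolic promoters (all 6.52%, listed in all libraries 14.6%), and AAGATGGC in 14.1% and 7.89% (3.17% and 6.31%). ACTACAA, a part of the ZNF143 motif, was found in 13.2% of cytosolic and 7.69% of mitochondrial promoters (3.83% and 5.77%). A C at the start followed by at least 4 pyrimidines, searched on the strand of the gene, was found for 13.2% of cytosolic and 3.85% of mitochondrial genes, beside 2.34% of all. Within 5 bases of the start these shares were 30.3%, 17.9% and 18.4%. The starts were annotated, not measured: the one nearest to the median summit, or the most upstream one for genes listed in no library. A tract at another start would be missed.

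AGATAA or TGATAA, the sites of GATA factors, were found in 9.21% of cytosolic and 17.9% of mitochondrial promoters, beside 16.0% of all and 7.53% of those listed in all 10 libraries. Taken singly, AGATAA was in 14.1% of mitochondrial promoters (9.68% and 4.64%) and TGATAA in 3.85% (7.80% and 3.10%). GGGCGG (SP and KLF factors) was found in 52.6% and 50.0% (46.5% and 74.5%), CCAAT (NFY) in 31.6% and 33.3% (38.8% and 48.1%), CACGTG (MYC and USF) in 10.5% and 5.13% (7.94% and 11.4%), and TATAAA in 10.5% and 8.97% (12.2% and 4.64%). The median GC content was 56.3% for cytosolic and 58.0% for mitochondrial promoters, beside 56.3% for all promoters and 62.3% for those listed in all 10 libraries. In shorter windows centred on the median summit of listed genes, ACTACAA was in 4.05% of cytosolic and 7.69% of mitochondrial genes. Genes listed in all 10 libraries had 4.09%. TATAAA was there in 8.11% and 1.28%, beside 1.60%, and CCGGAAG in 25.7% and 29.5%, beside 19.2%. A match shows only that the letters are in the window.

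**Figure D4:**
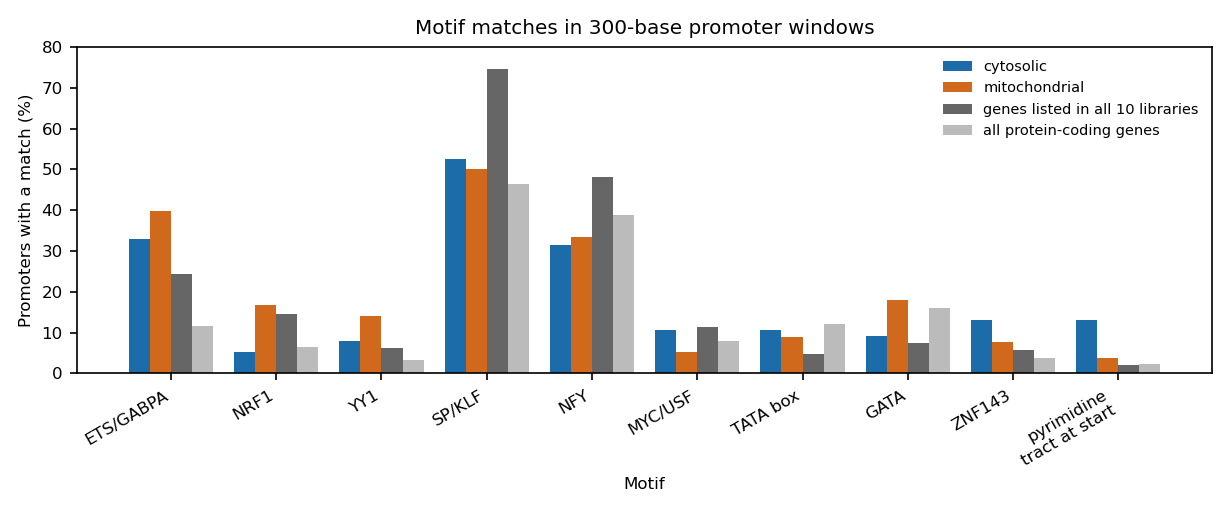
Bars give the share of promoters (vertical axis, %, from 0) with at least 1 match to each motif in the window from 250 bases before to 50 after the start, for cytosolic members, mitochondrial members, all genes listed in all 10 libraries and all protein-coding genes. The ETS/GABPA, YY1 and ZNF143 motifs stood above both reference bars in both sets, and NRF1 and GATA did so in the mitochondrial set. The tract at the start did so in both sets (13.2% and 3.85%). Some of these lay close to the higher reference bar. In the cytosolic set this held for YY1 (6 of 76 genes). In the mitochondrial set it held for ZNF143 (6 of 78 genes), NRF1 (13) and GATA (14). The mitochondrial share of the tract rested on 3 genes.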

How the data were processed

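ATAC-seq peak lists of 10 G1E-ER4 libraries were used, 1 per library, with 2 libraries per time point grouped by their labels. The authors aligned unique reads to mm10 and called peaks with MACS2 without a shifting model. The study's methods name Bowtie2, whereas the submitters' processing notes name Bowtie 1.0.0, Picard and MACS2. A shift of reads for the Tn5 cut was not given in the sources used here. The deposited files give a summit position and its score, the −log10 of the q-value as MACS2 writes it, with no counts, so depth is unknown and precision is shown only by the spread between libraries.

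Summits within 1 kb of 41438 GENCODE M21 basic protein-coding transcript starts (21851 genes, chromosomes 1 to 19, X and Y) were assigned to every such gene, keeping the highest score. Percentiles were ranks among all summits of 1 list. Time points were compared with limma 3.58.1 (R 4.3.3) on normal scores of the ranks within each library, over genes listed in all 10 libraries. The fit was also run on simulated data, in which libraries with the same replicate number shared no deviation. Replicate numbers paired the samples by rule: the correlations of deviations from the time-point means between time points were 0.173 to 0.347 over 10 pairs, so the fit with replicate number as a block was also run. It changed no call. Sequence was read with pysam 0.24.0 from the RefSeq genome of GRCm38.p6. Counts over members were not tested.

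The members and lists were chosen with earlier results of these data known. Genes named were those gained or lost, those listed in no or few libraries, those with the 3 highest and 3 lowest percentiles or slopes, those with the widest and narrowest summit ranges, and X-linked members. The replicate-number comparison, with the genes it names, and the 7-of-8 and 2-of-8 patterns were added after the data were seen. The alternatives were reaches of 500 and 250 bp, equal lists, the most upstream start, the nearest gene, 1 library sufficing, other starts and leaving out libraries. The rule left out Rps3a1. The value of 1 marker gene is not reported here.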

Additional observations from a re-analysis of the deposited data

Results flagged for a closer look

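The number of listed cytosolic genes was picked out because the change from 0 h had opposite signs in the libraries of the 2 replicate numbers. For 2, 6, 12 and 24 h in turn it was −8, −10, −6 and −5 in replicate 1 and 10, 17, 10 and 5 in replicate 2. The difference between the replicate numbers was not tested. Each series starts from a single 0 h library, and all protein-coding genes also moved down in replicate 1 and up in replicate 2. On equal lists the cytosolic counts in order of time were 43, 42, 37, 40 and 41 in replicate 1 and 53, 54, 64, 58 and 60 in replicate 2. The 4 later counts lay below 0 h in replicate 1 and above it in replicate 2, with those of 2 h close to 0 h in both. All genes did so at 3 of 4 times in each. Summits per list at 0, 2, 6, 12 and 24 h numbered 15258, 16115, 14211, 15422 and 15573 in replicate 1. In replicate 2 they numbered 11698, 14275, 19859, 13830 and 10698. List lengths overlapped between the replicate numbers, whereas the median scores of the lists did not. The part of list length and score in the result was not tested.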

How the results depend on the processing

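Of 432 recomputed values, 340 stayed within the spread or within 1.5 times and 92 moved. Those that stayed include every limma count, which was 0 throughout, and every count of listed members with 1 library left out. By the rule used the latter could not move, so the tally is no measure of stability. limma called 0 genes in all 16 alternatives, the replicate block included, where the genes with an unadjusted p under 0.05 numbered 303, 289, 301 and 339 at 2, 6, 12 and 24 h and 330 for the slope.

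Cytosolic genes at 0 h numbered 52.0 within 250 bp, 48.0 on equal lists, 54.5 with the most upstream start and 51.5 with the nearest gene. Mitochondrial genes over the 5 times numbered 56.0, 57.0, 63.0, 58.0 and 60.5 on equal lists and 53.5, 54.0, 58.0, 54.5 and 56.0 with the nearest gene, and within 250 bp 60.0, 62.5, 58.5 and 60.5 for the times other than 6 h. Genes lost by 2, 6 and 12 h numbered 171, 80 and 106 on equal lists and 131, 63 and 114 with the nearest gene, and 54 within 250 bp for 6 h, while 162 genes were gained by 24 h on equal lists. Members gained or lost on equal lists numbered 12 for 6 h and 11 for 24 h, and with the nearest gene 7 for 6 h and 2 for 12 h. With 1 library sufficing, 502, 700, 557 and 481 genes were gained, 330, 128, 308 and 443 lost, and 20, 12, 12 and 17 members called, at 2, 6, 12 and 24 h. The median percentile among promoter summits alone was 38.2 (cytosolic) and 43.0 (mitochondrial), and 55.8 for mitochondrial genes on equal lists. A shorter reach and equal lists keep fewer summits, 1 library sufficing loosens the rule by construction, and the cause of the other moves was not tested.

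Leaving out 1 library at a time, so that the rules for gain and loss needed 1 list fewer, gave 55 to 57, 49 to 65, 47 to 72, 51 to 65 and 52 to 60 cytosolic genes and 62 to 69, 65 to 71, 67 to 78, 65 to 69 and 64 to 69 mitochondrial genes at the 5 times. Genes gained ranged over 295 to 700, 299 to 886, 340 to 700 and 213 to 547, genes lost over 163 to 331, 23 to 444, 129 to 463 and 220 to 544, and members called over 13 to 19, 7 to 18, 10 to 17 and 12 to 21, at 2, 6, 12 and 24 h.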
